A study of Mus musculus with 12 samples.

Results

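The genes described here are 6 regulators of the entry of germ cells into meiosis, namely Stra8, Gm4969 (the symbol that the deposited table uses for Meiosin), Meioc, Ythdc2, Rbm46 and Zglp1. They were taken by name from a table of 35976 gene symbols, and all 6 were among the 16166 genes that had enough counts to be tested. RNA was sequenced from primordial germ cells, which give rise to the gametes, of female mouse embryos at E14.5. HxD cells were homozygous for a catalytically dead Tet1 (genotype Tet1HxD/HxD). KO cells were Tet1 knockouts (genotype KO Tet1-/-). V cells were homozygous for a Tet1 allele (genotype Tet1V/V) whose product, by the labels, stalls once it has made 5-hydroxymethylcytosine, and WT cells were wild type. Each of these 4 groups had 3 libraries, each made from 5000 cells that had been sorted for an Oct4-GFP reporter carried in every group. The labels state neither the exons removed in KO nor the strain background, nor whether replicates were separate embryos, litters or pools. The p-values therefore reflect variation among these 12 libraries, part of which may be technical.

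Female germ cells leave mitosis and begin meiosis in the fetal ovary, under retinoic acid and BMP signals from surrounding cells and with competence given by DAZL, a germ cell RNA-binding protein. STRA8 and its partner MEIOSIN bind promoters of meiotic genes and switch them on. MEIOC, the RNA helicase YTHDC2 and the RNA-binding protein RBM46 act together on transcripts, which lets cells leave the mitotic programme, and ZGLP1 is a GATA-like zinc finger factor that acts downstream of BMP in the oogenic programme. TET1 oxidizes 5-methylcytosine in DNA, mostly where a C is followed by a G (CpG), and in germ cells it is known for acting at promoters of germline genes. The comparisons ask whether the levels of these regulators depend on TET1 and on which of its activities.

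The promoters of Stra8, Gm4969 and Meioc are shown because these 3 genes were the members that lay below WT in every mutant library, and because CpG is the context in which TET1 works. Each is 300 bases, from 250 before to 50 after the annotated start, printed 5′ to 3′ on the gene's strand from RefSeq on GRCm38.p6, with every CG in capitals. Stra8 lies at chr6:34920698-34920997 on the plus strand, Gm4969 (Bhmg1 in that table) at chr7:19118295-19118594 on the minus strand, and Meioc at chr11:102665335-102665634 on the plus strand.
Stra8: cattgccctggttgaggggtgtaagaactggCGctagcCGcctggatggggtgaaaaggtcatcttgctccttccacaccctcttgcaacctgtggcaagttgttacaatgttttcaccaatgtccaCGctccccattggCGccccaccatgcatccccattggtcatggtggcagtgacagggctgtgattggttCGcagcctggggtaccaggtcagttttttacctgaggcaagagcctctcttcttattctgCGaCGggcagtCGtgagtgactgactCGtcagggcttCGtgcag
Gm4969: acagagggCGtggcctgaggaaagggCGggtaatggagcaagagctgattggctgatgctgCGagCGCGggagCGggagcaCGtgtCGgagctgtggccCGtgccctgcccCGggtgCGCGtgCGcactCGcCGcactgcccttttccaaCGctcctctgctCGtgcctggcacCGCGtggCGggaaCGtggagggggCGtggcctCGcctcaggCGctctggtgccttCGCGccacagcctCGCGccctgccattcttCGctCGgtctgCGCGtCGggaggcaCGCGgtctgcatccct
Meioc: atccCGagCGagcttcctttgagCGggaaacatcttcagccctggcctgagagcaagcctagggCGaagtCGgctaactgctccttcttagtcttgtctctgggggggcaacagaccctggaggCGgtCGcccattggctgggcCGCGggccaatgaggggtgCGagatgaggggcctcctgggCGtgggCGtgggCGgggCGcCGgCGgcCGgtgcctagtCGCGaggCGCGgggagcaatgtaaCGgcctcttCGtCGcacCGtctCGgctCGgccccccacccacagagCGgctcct
The Gm4969 window held 35 CpGs, more than 93.0% of the 32544 promoters of the same length, and the Meioc window held 28, more than 85.7%. The Stra8 window held 10 CpGs, more than 56.2%, against a median of 7 over all promoters. Of the other members, Rbm46 had 25 CpGs and Zglp1 had 17, both between the counts of Stra8 and Meioc. Sequences were matched for 5 of the 6 members, and Ythdc2 is named only. A link of CpG number to the levels was not tested.

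Several short motifs were searched on both strands of these windows, with positions counted from the start site so that -1 is the last base before it. AGGTCA, the half-site of retinoic acid receptors, was present in the Stra8 window at -194 and -38 on the plus strand and in 16.2% of all promoters. CNCCTCAG, a motif reported for STRA8, was present in Gm4969 at -44 as CGCCTCAG and on the reverse strand of Rbm46 at -16, and in 7.99% of all promoters. CACGTG, the E-box that MAX-MGA complexes bind, was found in Gm4969 at -171, in Rbm46 at -34 and in Zglp1 at -125 (7.17% of all promoters), where the Zglp1 match overlapped a reverse-strand AGGTCA at -121. GGCGGGAA, 1 form of the E2F site, was found in Gm4969 at -71 (2.20% of all promoters), and the Meioc window held none of these 4 motifs. Only these exact patterns were searched, so other forms of the sites may be present in any window. A match describes letters in a window and not binding.

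Total counts per library were 18471158 to 29495313, and levels are given as CPM, in which each count is divided by the TMM-adjusted size of its library. Germ cell identity was checked with 12 markers, whose summed level was 3881.5 to 4263.9 CPM in HxD, 4221.9 to 4439.5 in KO, 3707.6 to 4537.8 in V and 4209.3 to 4416.4 in WT. The summed level of 20 gonadal somatic markers was 10.1 to 31.3 CPM in HxD, 9.65 to 25.4 in KO, 13.96 to 68.2 in V and 15.3 to 42.8 in WT. Some libraries captured fewer rare transcripts than others. Of 2936 genes that averaged between 1 and 5 CPM, 43.7% were at 0 in HxD1, 27.1% in KO1, 45.7% in KO3 and 24.4% in V2. The share was 1.77% to 9.81% in the other 5 mutant libraries, against 13.3% to 20.6% in the WT libraries. Results are also given without HxD1, KO1 and KO3, and without V2 Stra8 was still called in V (log2 fold change -2.52, edgeR adjusted p = 0.0399). Tet1 itself had 130.7, 158.3 and 80.8 CPM in KO, against 91.4, 180.1 and 215.0 CPM in WT (log2 fold change -0.40 ± 0.24 (SE), edgeR adjusted p = 0.484). The ranges of KO and WT overlapped, and since the count covers the whole gene this is no check of the KO labels.

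Stra8, Gm4969 and Meioc were low in all 3 mutants, while Ythdc2 stayed near its WT level and Rbm46 and Zglp1 lay between. KO had the lowest means of these 3 genes, at 13.4% of the WT mean for Stra8, 12.96% for Gm4969 and 20.5% for Meioc. HxD stood at 25.4%, 27.3% and 32.3% of WT for these genes, and V at 22.4%, 27.9% and 32.8%. In a bulk sample, fewer cells with a transcript and less transcript per cell cannot be told apart.

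**Figure D1:**
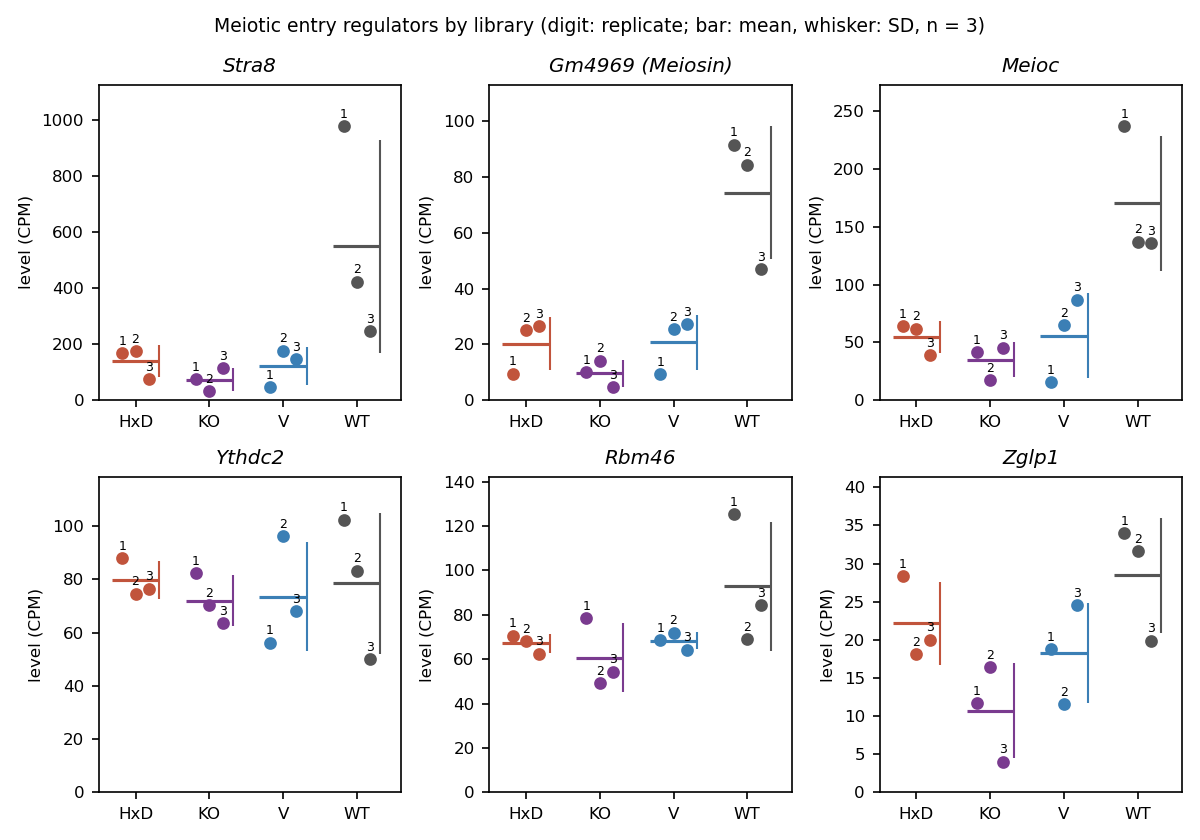
Level of each gene in CPM (vertical axes, linear, from 0) in each library of HxD, KO, V and WT (horizontal axes); points are libraries marked with their replicate number, bars are means and whiskers are SD (n = 3). For Stra8, Gm4969 and Meioc the 9 mutant libraries all lie below the 3 WT libraries, while for Ythdc2 and Rbm46 the groups overlap.

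Stra8, whose product drives the meiotic programme, had 169, 175 and 74.6 CPM in HxD, 73.9, 32.2 and 114 in KO, and 45.8, 177 and 145 in V, against 977, 423 and 247 in WT. Every mutant library was below every WT library, with the narrowest gap between V2 and WT3. The means were 139 ± 56.2 CPM in HxD, 73.5 ± 41.1 in KO, 122.8 ± 68.5 in V and 549 ± 381 in WT (SD, n = 3). The WT libraries themselves spanned a 3.95-fold range, which limits the precision of each fold change. Stra8 fell in KO (log2 fold change -2.90 ± 0.45 (SE), 95% interval -3.82 to -1.98; edgeR quasi-likelihood test, adjusted p = 0.000907) and in V (-2.16 ± 0.43, -3.05 to -1.27; adjusted p = 0.0338). In HxD the estimate of -1.98 ± 0.43 (-2.86 to -1.09) missed the threshold (edgeR adjusted p = 0.0928). Without WT1, the library with the highest Stra8, the estimates were -1.27 in HxD, -2.19 in KO and -1.45 in V, and the KO call remained while the V call was lost. Without HxD1, KO1 and KO3 the V estimate was -2.16 with an edgeR adjusted p of 0.0507, and the HxD estimate was -2.14 (adjusted p = 0.206). The V call was also lost with the DESeq2 Wald test (log2 fold change -2.19, adjusted p = 0.0569) and when edgeR tested only genes of at least 5 CPM on average (-2.18, adjusted p = 0.108).

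Gm4969 (Meiosin), the partner of STRA8, had 9.45, 25.0 and 26.4 CPM in HxD, 9.92, 14.2 and 4.75 in KO, and 9.38, 25.5 and 27.2 in V, against 91.5, 84.3 and 47.0 in WT. Again no mutant library reached the lowest WT library, and the lowest value, in KO3, rested on 108 counts. The means were 20.3 ± 9.43 CPM in HxD, 9.63 ± 4.73 in KO, 20.7 ± 9.85 in V and 74.3 ± 23.9 in WT (SD, n = 3). Gm4969 fell in KO (log2 fold change -2.95 ± 0.44 (SE), 95% interval -3.86 to -2.04; edgeR adjusted p = 0.000696). The estimates in HxD (-1.87 ± 0.43, -2.74 to -1.0; edgeR adjusted p = 0.122) and in V (-1.84 ± 0.42, -2.71 to -0.97; adjusted p = 0.0636) missed the threshold. HxD1 and KO3, which had the most rare genes at 0, were also the lowest for Gm4969 in their groups. Without HxD1, KO1 and KO3 the estimates were -1.53 in HxD, -2.39 in KO (edgeR adjusted p = 0.0850, with KO2 assumed to vary like the other groups) and -1.84 in V (adjusted p = 0.0386). The V value was also a call with DESeq2 (-1.88, adjusted p = 0.0168).

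Meioc, whose product keeps germ cells in the meiotic programme together with YTHDC2, had 63.7, 61.7 and 39.1 CPM in HxD, 41.5, 17.6 and 45.5 in KO, and 15.5, 64.9 and 87.0 in V, against 237, 137 and 136 in WT. The highest mutant library, V3, was below the lowest WT library, and V was the most scattered group, with a 5.61-fold range. The means were 54.9 ± 13.7 CPM in HxD, 34.9 ± 15.1 in KO, 55.8 ± 36.6 in V and 170.1 ± 58.0 in WT (SD, n = 3). Meioc fell in KO (log2 fold change -2.29 ± 0.39 (SE), 95% interval -3.10 to -1.48; edgeR adjusted p = 0.00324). In HxD (-1.63 ± 0.39, -2.42 to -0.84; edgeR adjusted p = 0.151) and V (-1.60 ± 0.39, -2.39 to -0.82; adjusted p = 0.0780) the estimates missed the threshold. Without HxD1, KO1 and KO3 the KO estimate was -3.28 (edgeR adjusted p = 0.0494), and that of Stra8 was -4.09 (adjusted p = 0.0379), both resting on KO2, which was the lowest KO library for these genes.

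Ythdc2, the helicase that works with MEIOC, had 87.9, 74.6 and 76.5 CPM in HxD, 82.3, 70.2 and 63.5 in KO, and 56.2, 96.2 and 68.04 in V, against 102, 83.2 and 50.03 in WT. The lowest and the highest of the 12 libraries were both WT, so every mutant library fell inside the WT range. The means were 79.7 ± 7.17 CPM in HxD, 72.0 ± 9.51 in KO, 73.5 ± 20.6 in V and 78.5 ± 26.4 in WT (SD, n = 3). The log2 fold change was 0.02 ± 0.24 (SE) in HxD (edgeR adjusted p = 1), -0.12 ± 0.24 in KO (adjusted p = 0.884) and -0.09 ± 0.24 in V (adjusted p = 0.975). Their 95% intervals ran from -0.47 to 0.51 in HxD, -0.62 to 0.37 in KO and -0.59 to 0.40 in V, which exclude a decrease of the size estimated for Meioc in the same comparison.

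Rbm46, an RNA-binding protein that recruits the MEIOC-YTHDC2 complex to transcripts, had 70.6, 68.2 and 62.6 CPM in HxD, 78.5, 49.2 and 54.4 in KO, and 68.6, 72.0 and 64.3 in V, against 125, 69.2 and 84.3 in WT. Each mutant group overlapped WT through WT2. The means were 67.1 ± 4.12 CPM in HxD, 60.7 ± 15.6 in KO, 68.3 ± 3.86 in V and 92.9 ± 29.0 in WT (SD, n = 3). None of the log2 fold changes was called, at -0.47 ± 0.23 (SE) in HxD (edgeR adjusted p = 0.688), -0.62 ± 0.23 in KO (adjusted p = 0.219) and -0.44 ± 0.23 in V (adjusted p = 0.541). The 95% intervals were -0.94 to -0.000353 in HxD, -1.09 to -0.14 in KO and -0.91 to 0.03 in V.

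Zglp1, the BMP-dependent factor of the oogenic programme, had 28.3, 18.1 and 20.0 CPM in HxD, 11.7, 16.4 and 4.05 in KO, and 18.8, 11.5 and 24.5 in V, against 33.9, 31.6 and 19.9 in WT. The KO libraries were all below WT, whereas HxD and V overlapped it. The means were 22.2 ± 5.43 CPM in HxD, 10.7 ± 6.23 in KO, 18.3 ± 6.53 in V and 28.5 ± 7.54 in WT (SD, n = 3). None of the log2 fold changes was called, at -0.36 ± 0.44 (SE) in HxD (edgeR adjusted p = 0.990), -1.41 ± 0.45 in KO (adjusted p = 0.126) and -0.64 ± 0.44 in V (adjusted p = 0.684). The KO value was a call with the DESeq2 Wald test and when no filter beyond 1 count was applied. Of 1088 exon bases of Zglp1 in GENCODE vM21, 1003 are shared with the read-through gene model Gm49373 on the same strand, so its level is uncertain, while the other 5 members share no exon base with another gene.

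**Figure D2:**
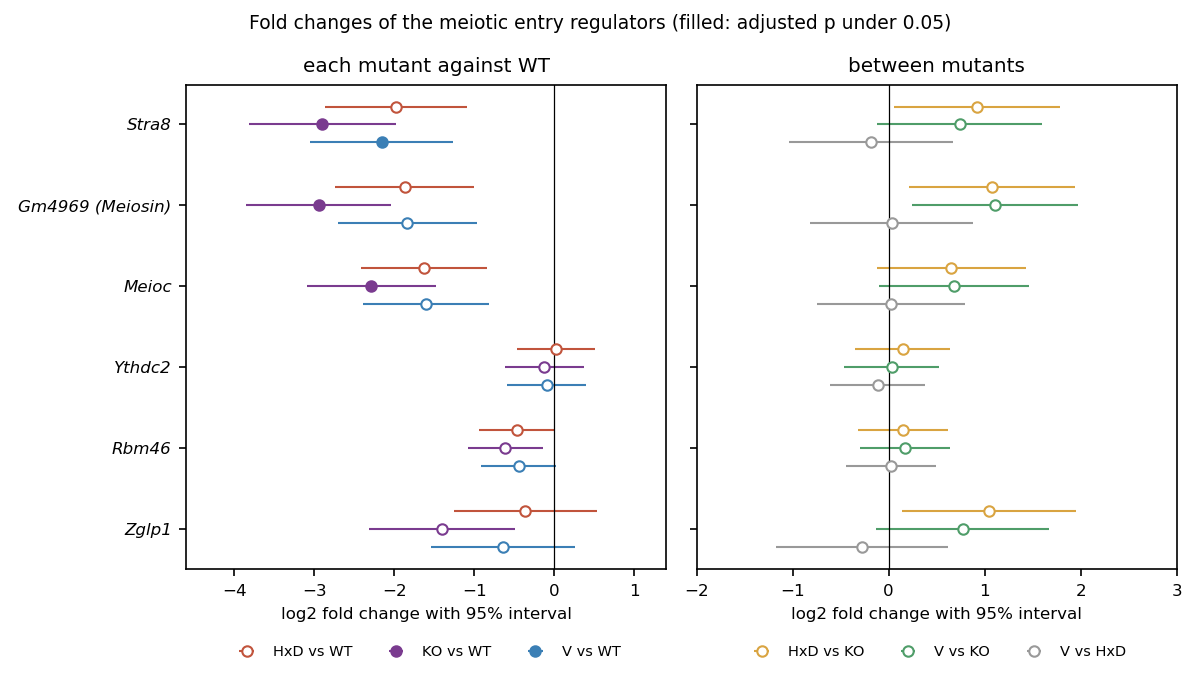
Log2 fold change with its 95% interval (horizontal axes) for each gene (vertical axis); left, HxD, KO and V each against WT, right, the mutants against one another. Filled points have an edgeR adjusted p under 0.05, and these are the 3 KO points of Stra8, Gm4969 and Meioc and the V point of Stra8.

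Counted over the members, 3 of 6 were called in KO, all lower, against 1.22% of all 16166 tested genes called and 0.495% called lower. In V 1 of 6 was called, lower, against 0.155% of all genes called and 0.0866% called lower. In HxD 0 of 6 were called by edgeR, against 0.0309% of all genes called and 0.0247% called lower, while DESeq2 called 1 (Gm4969) and limma-voom called 3 (Stra8, Gm4969 and Meioc). At an unadjusted p under 0.05, edgeR had 4 of 6 members in HxD, 5 in KO and 3 in V, beside 1172, 2138 and 1567 of the 16166 genes. DESeq2 called 1 member in HxD, 4 in KO and 1 in V, beside 84 of 15905, 626 of 15626 and 268 of 15626 genes. With limma-voom the counts were 3, 3 and 2 members, beside 15, 187 and 20 of 16166 genes. Groups that did not overlap, with the mutant lower, were found for 3 of 6 members in HxD, 4 of 6 in KO and 3 of 6 in V, against 5.77%, 8.36% and 7.48% of all tested genes. The median log2 fold change of the 6 members was -1.05 in HxD, -1.85 in KO and -1.12 in V, beside -0.01, -0.02 and 0 over all tested genes. These comparisons share the same WT libraries and are not independent of one another.

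With the mean of the 3 mutant groups set against WT, 3 of 6 members fell, Stra8, Gm4969 and Meioc, against 1.22% of all genes called and 0.637% called lower. Stra8 was at 112 ± 57.1 CPM in the 9 mutant libraries and 549 ± 381 in the 3 WT libraries (SD), a log2 fold change of -2.35 ± 0.31 (SE; edgeR adjusted p = 8.46e-05). Gm4969 was at 16.9 ± 9.04 CPM in the mutants and 74.3 ± 23.9 in WT (-2.22 ± 0.31; edgeR adjusted p = 0.000141). Meioc was at 48.5 ± 23.3 CPM in the mutants and 170.1 ± 58.0 in WT (-1.84 ± 0.28; edgeR adjusted p = 0.000532). For these 3 genes all 9 mutant libraries were below all 3 WT libraries, which held for 2.05% of all tested genes. The other members were not called, with -0.07 ± 0.20 for Ythdc2 (edgeR adjusted p = 0.936), -0.51 ± 0.18 for Rbm46 (0.185) and -0.80 ± 0.34 for Zglp1 (0.298). These 3 calls remained whichever of the 12 libraries was left out, although without WT1 the Stra8 estimate was -1.63 and the number of genes called over the whole table dropped to 29.

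**Figure D3:**
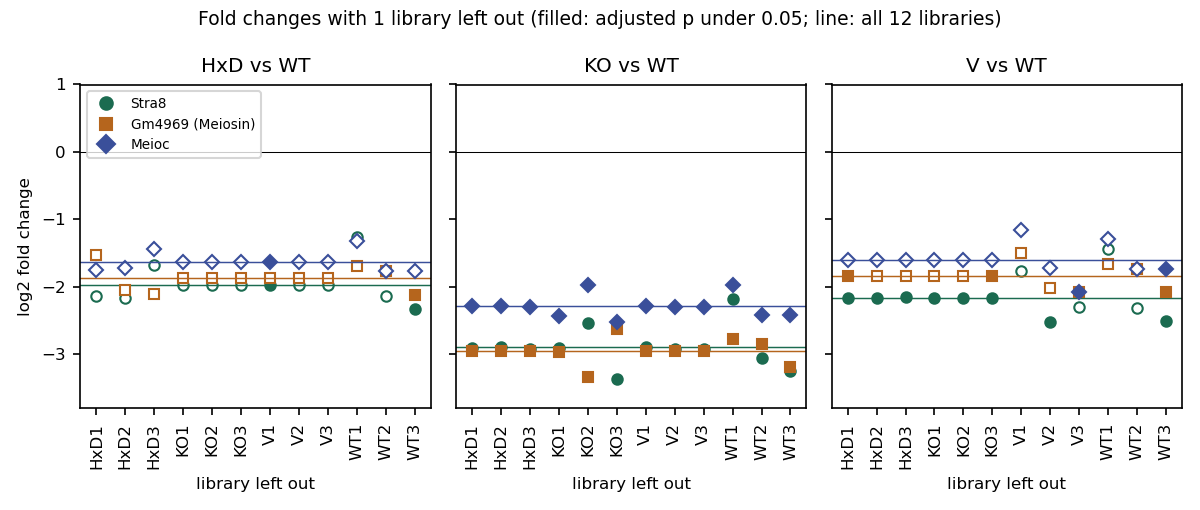
Log2 fold change of Stra8, Gm4969 and Meioc (vertical axis) in HxD, KO and V against WT with 1 library left out (horizontal axes); lines are the values with all 12 libraries and filled symbols have an edgeR adjusted p under 0.05. All KO symbols are filled, whereas those of HxD and V change with the library left out, and leaving out WT1 brings the Stra8 estimates closest to 0.

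The KO calls of Stra8, Gm4969 and Meioc also remained with each library left out, with log2 fold changes of -3.37 to -2.19 for Stra8, -3.34 to -2.62 for Gm4969 and -2.52 to -1.97 for Meioc. The HxD and V results lay closer to the threshold. In HxD, Stra8 was called without V1, which enters this comparison only through the shared spread, and without WT3. Gm4969 was called without WT3, and Meioc without V1. In V, Stra8 was not called without V1, V3, WT1 or WT2, with adjusted p up to 0.334, while Gm4969 was called without HxD1, KO3 or WT3 and Meioc without V3 or WT3.

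Levels of different genes were compared per kb of exon in GENCODE vM21. In HxD and V the order by the means was Stra8, Rbm46, Zglp1, Meioc, Ythdc2 and Gm4969, with Stra8 at 77.3 ± 31.2 CPM per kb in HxD and 68.1 ± 38.0 in V (SD, n = 3). In HxD the ranges of Rbm46 and Zglp1 overlapped, as did those of Meioc and Ythdc2, and the other neighbours in the order did not. In V only Rbm46 and Zglp1, and Ythdc2 and Gm4969, did not overlap as neighbours. In KO the order was Stra8 with 40.8 ± 22.8 CPM per kb, Rbm46 with 24.3 ± 6.25, Zglp1 with 9.85 ± 5.73, Ythdc2 with 8.11 ± 1.07, Meioc with 7.55 ± 3.27 and Gm4969 with 2.05 ± 1.01. The KO ranges of Stra8 and Rbm46 overlapped, as did those of Zglp1, Ythdc2 and Meioc, while Rbm46 stayed above Zglp1 and Gm4969 below Meioc in every KO library. In WT, Stra8 led with 305 ± 211 CPM per kb, followed by Rbm46 with 37.2 ± 11.6, Meioc with 36.8 ± 12.6, Zglp1 with 26.2 ± 6.93, Gm4969 with 15.8 ± 5.08 and Ythdc2 with 8.84 ± 2.98. The WT range of Stra8 lay above that of Rbm46, and each of the following genes overlapped the next in the order. Meioc thus stood next to Ythdc2 in HxD, KO and V, and between Rbm46 and Zglp1 in WT, with overlapping ranges. The place of Zglp1 is uncertain, since most of its exon bases are shared with Gm49373.

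Ratios taken inside a library do not depend on its scaling. Meioc over Ythdc2 was 0.250 to 1.28 in the 9 mutant libraries and 1.65 to 2.72 in the 3 WT libraries, without overlap. Meioc over Rbm46 was 0.226 to 1.35 in the mutants and 1.61 to 1.98 in WT, also without overlap. Stra8 over Ythdc2 was 0.459 to 2.34 in the mutants and 4.94 to 9.55 in WT. How many of all gene pairs lacked overlap was not counted. Between members that were both low the ratios overlapped, with Stra8 over Meioc at 1.67 to 2.96 in the mutants and 1.82 to 4.12 in WT. Stra8 over the germ cell marker Ddx4 also overlapped, at 0.0694 to 0.488 in the mutants and 0.373 to 1.37 in WT. Ddx4 itself was lower on average in the mutants, so this ratio does not set Stra8 against a constant level. Its means were 474 ± 130 CPM in HxD, 442 ± 67.1 in KO and 422 ± 113 in V, against 662 ± 51.9 in WT (SD, n = 3). Rbm46 over Ythdc2 and Zglp1 over Ythdc2 overlapped as well. Stra8 over Gm4969 ranged from 2.27 to 24.1 in the mutants and from 5.02 to 10.7 in WT, and its highest values, 24.1 and 17.9, were in KO3 and HxD1, the libraries with the most rare genes at 0. Their part in this ratio was not tested.

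**Figure D4:**
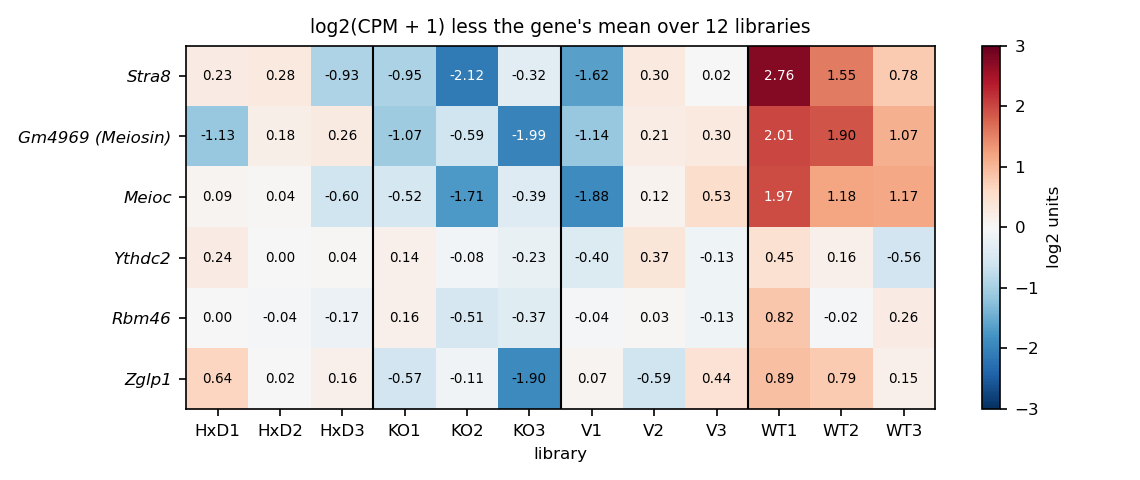
Level of each gene (vertical axis) in each library (horizontal axis) as log2(CPM + 1) less the gene's mean over the 12 libraries, in log2 units (colour and printed values). WT1 is the highest library for all 6 genes, and for Stra8, Gm4969 and Meioc the 3 WT libraries are above every mutant library.

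No difference between mutants passed the test for any member. By edgeR, 0 of 6 members were called in HxD against KO, V against KO or V against HxD, as were 0 genes of the whole table (0%). At an unadjusted p under 0.05 there were 514, 747 and 326 genes in these comparisons, DESeq2 called 34, 21 and 20 genes, none of them a member, and limma-voom called 0. In HxD against KO the estimates were 0.92 ± 0.42 (SE) for Stra8 (95% interval 0.06 to 1.79), 1.07 ± 0.42 for Gm4969 (0.21 to 1.94), 0.65 ± 0.38 for Meioc (-0.12 to 1.43) and 1.05 ± 0.44 for Zglp1 (0.14 to 1.95), each with an edgeR adjusted p of 1. Of these genes, Zglp1 was the 1 of 6 members whose HxD libraries all lay above the KO libraries, which held for 4.92% of all tested genes. In V against KO the estimates were 0.74 ± 0.42 for Stra8 (-0.12 to 1.60), 1.11 ± 0.42 for Gm4969 (0.24 to 1.97), 0.68 ± 0.38 for Meioc (-0.10 to 1.46) and 0.77 ± 0.44 for Zglp1 (-0.13 to 1.67; edgeR adjusted p = 0.945 for each). In V against HxD they were -0.18 ± 0.42 for Stra8 (-1.04 to 0.67), 0.03 ± 0.41 for Gm4969 (-0.82 to 0.88) and 0.03 ± 0.38 for Meioc (-0.75 to 0.80). These intervals are wide, and a missed threshold does not show that the mutants act alike. Ythdc2 and Rbm46 had narrower intervals, such as -0.35 to 0.64 for Ythdc2 in HxD against KO.

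Among 10401 genes of at least 5 CPM on average, the genes whose centred levels over the 12 libraries were most like each member were found by the root mean square of the log2 difference. For Stra8 these were H2-K1 at 0.26, Meioc at 0.39 and Taf7l at 0.41, beside 1.29 for the spread of Stra8 itself. Taf7l, a germ cell paralog of the TFIID subunit TAF7, was at 12.5 ± 7.58 CPM in KO and 109 ± 78.4 in WT (log2 fold change -3.12 ± 0.50, edgeR adjusted p = 0.00162). H2-K1, a class I histocompatibility gene, was at 8.79 ± 5.25 CPM in KO and 52.4 ± 30.8 in WT (-2.57 ± 0.50, edgeR adjusted p = 0.0102), and its reads could be shared with related genes. Taf7l and H2-K1 were picked for their likeness to Stra8 over these same libraries, so their KO tests are not independent of Stra8. For Meioc the nearest genes were H2-K1 (0.35), Rusc1 (0.35) and Stra8 (0.39), so Stra8 and Meioc were each among the 3 nearest genes of the other. Gm4969 was farther from both, at 0.89 from Stra8 and 0.79 from Meioc, and its nearest genes were Patl2 (0.42), Olfm1 (0.47) and Tmem8 (0.48). Ythdc2 was nearest to Apeh (0.15), Nelfb (0.18) and Ttc39c (0.18), Rbm46 to Cdkn1c (0.12), Spop (0.14) and Denr (0.14), and Zglp1 to Lrp1 (0.32), LOC102639982 (0.33) and Smpd3 (0.34). The spread of the member itself was 1.09 for Meioc, 1.19 for Gm4969, 0.29 for Ythdc2, 0.32 for Rbm46 and 0.73 for Zglp1. Ythdc2 and Rbm46 varied little, so their small distances do not mean a closer likeness than that of Stra8 to its nearest genes.

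Genes of meiotic prophase carry out chromosome pairing and recombination and include STRA8-MEIOSIN targets. Of 47 tested, edgeR called 1 lower in HxD, 9 in KO and 3 in V, and none higher, beside 0.0309%, 1.22% and 0.155% of all tested genes called. Their median log2 fold changes were -0.89 in HxD, -1.07 in KO and -0.96 in V, beside -0.01, -0.02 and 0 over all tested genes. Mael, which acts in transposon silencing and meiotic chromosome synapsis, was at 40.7 ± 5.71 CPM in HxD, 21.8 ± 4.01 in KO and 41.3 ± 21.0 in V, against 169.5 ± 36.5 in WT (log2 fold change -2.06 ± 0.28, -2.96 ± 0.29 and -2.03 ± 0.28, edgeR adjusted p = 0.000607, 7.21e-07 and 0.000755). Sycp1, which encodes a component of the synaptonemal complex, was at 55.6 ± 28.0 CPM in KO and 50.1 ± 29.4 in V, against 242.9 ± 111.0 in WT (-2.13 ± 0.34 and -2.28 ± 0.35, edgeR adjusted p = 0.00162 and 0.00214). Dmc1, the meiotic recombinase, fell in KO by 1.55 ± 0.25 on the log2 scale (edgeR adjusted p = 0.00162), and Tex15 fell in V by 1.02 ± 0.22 (adjusted p = 0.0486). At an unadjusted p under 0.05, edgeR had 23 lower in HxD, 29 in KO and 22 in V, and 1 higher, in V, beside 1172, 2138 and 1567 of all 16166 genes in either direction. DESeq2 called 7, 19 and 7 and limma-voom 4, 12 and 4, all lower, in HxD, KO and V. Over all genes DESeq2 called 84 of 15905, 626 of 15626 and 268 of 15626, and limma-voom 15, 187 and 20 of 16166. With the mean of the 3 mutants against WT, edgeR called 13 of 47 lower, against 1.22% of all tested genes called and 0.637% called lower.

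Genes of the retinoic acid, BMP and m6A pathways were also listed, as expressed in the sorted germ cells. The signals from surrounding cells were not measured. Of 17 tested genes of retinoic acid signalling, which include receptors, synthesis and breakdown enzymes and responsive genes, 1 was lower in KO and none in HxD or V by edgeR. At an unadjusted p under 0.05, edgeR had 1, 3 and 2 of them in HxD, KO and V. DESeq2 called 0, 2 and 2, and limma-voom called 0, 1 and 0. The KO gene called by edgeR was Rec8, a meiotic cohesin that responds to retinoic acid and is also in the prophase list, at 159.0 ± 62.9 CPM in KO and 403.2 ± 120.9 in WT (log2 fold change -1.34 ± 0.26, edgeR adjusted p = 0.00980). Of 19 tested BMP receptors, SMADs and target genes, 0 were called in HxD, KO or V by edgeR, with 1, 3 and 0 at an unadjusted p under 0.05 in HxD, KO and V. Among them DESeq2 called 0, 2 and 0, limma-voom called 0 in each, and the median log2 fold changes were -0.16, -0.11 and -0.05. Of 14 tested genes of m6A writing, reading and erasing and the YTHDC2 partner Xrn1, 0 were called by edgeR, DESeq2 or limma-voom, with 1, 0 and 0 at an unadjusted p under 0.05 by edgeR in HxD, KO and V. Over all 16166 tested genes, 1172, 2138 and 1567 had such a p in HxD, KO and V. The shares of all tested genes called by edgeR were 0.0309%, 1.22% and 0.155%.

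Of 20 tested genes that act against meiotic entry, 2 were called by edgeR, both in KO, and in opposite directions. Uhrf1, which keeps DNA methylation through cell division, was at 48.5 ± 10.4 CPM in KO and 98.1 ± 17.99 in WT (log2 fold change -1.02 ± 0.23, edgeR adjusted p = 0.0223), and Suz12, a Polycomb subunit, was at 380.0 ± 32.4 CPM in KO and 234.4 ± 44.8 in WT (0.70 ± 0.17, adjusted p = 0.0409). In KO edgeR had 3 at an unadjusted p under 0.05, and DESeq2 and limma-voom each called 1 higher and 1 lower. In HxD and V 0 were called by edgeR, with 5 and 3 at an unadjusted p under 0.05, while DESeq2 called 1 and 2 and limma-voom 0. Of 20 tested mitotic cyclins and kinases, Ccnd3, a cyclin of the G1 phase, was higher in KO, at 193.5 ± 35.7 CPM against 87.1 ± 32.8 in WT (1.15 ± 0.23, edgeR adjusted p = 0.0130), and the other 19 were not called there by edgeR. DESeq2 and limma-voom each called 2 of the 20 higher in KO. In HxD and V 0 of these 20 were called by edgeR, while DESeq2 called 0 and 1 and limma-voom 0. At an unadjusted p under 0.05 by edgeR, 6 were higher in HxD, 5 higher and 1 lower in KO, and 6 higher in V. Over all 16166 tested genes, 1172, 2138 and 1567 had such a p in HxD, KO and V, in either direction. The shares of all tested genes called by edgeR were 0.0309%, 1.22% and 0.155%. With the mean of the 3 mutants against WT, Ccnd3 and its kinase partner Cdk4 were higher, against 1.22% of all tested genes called in either direction. In the oogenic list, the programme that ZGLP1 acts in, 0 of 12 tested genes were called by edgeR, with 2, 3 and 2 at an unadjusted p under 0.05 in HxD, KO and V, while DESeq2 called 1, 1 and 2 and limma-voom called 0.

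Germ cell identity genes moved in both directions beside the members. Dazl, the RNA-binding protein that gives competence for meiosis, fell in all 3 comparisons, at 753.2 ± 127.6 CPM in HxD, 719.2 ± 119.7 in KO and 685.7 ± 115.0 in V, against 1598 ± 363 in WT (log2 fold change -1.09 ± 0.19, -1.15 ± 0.19 and -1.22 ± 0.19, edgeR adjusted p = 0.0197, 0.00217 and 0.00312). Pou5f1, which encodes OCT4 and underlies the sort reporter, was at 449.5 ± 99.3 CPM in HxD, 460.0 ± 141.5 in KO and 546.1 ± 183.5 in V, against 248.0 ± 61.2 in WT. It rose in V (1.14 ± 0.23, edgeR adjusted p = 0.0397) and was not called in HxD (0.86 ± 0.23, adjusted p = 0.289) or KO (0.89 ± 0.23, adjusted p = 0.0519). Tfap2c, an early germ cell factor, rose in KO (1.07 ± 0.25, edgeR adjusted p = 0.0262), and the median of the 12 identity genes was 0.48 in HxD, 0.58 in KO and 0.61 in V. At an unadjusted p under 0.05, edgeR had 5, 7 and 6 of the 12 higher in HxD, KO and V, and 2 lower in each. Over all 16166 tested genes, 1172, 2138 and 1567 had such a p in either direction. DESeq2 called 0, 4 and 5 higher and limma-voom 0, 3 and 2, and both called 1 lower in each comparison. The part of these changes in the low levels of the members was not tested.

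Markers of other cell types were not called in HxD, KO or V by edgeR. Of 15 tested gonadal somatic genes, 0 were called by edgeR, DESeq2 or limma-voom in HxD, KO or V, and by edgeR 0 had an unadjusted p under 0.05. Of the full 20, 19 were at 0 in at least 1 library. Of 8 tested endothelial, blood and immune genes, 0 were called in HxD, KO or V by edgeR or limma-voom, DESeq2 called 1 in HxD, and by edgeR 1 (HxD) and 0 (KO and V) had an unadjusted p under 0.05. The summed level of all 16 of these markers was 154 to 198 CPM in HxD, 198 to 285 in KO, 145 to 260 in V and 145 to 230 in WT. Pecam1, which germ cells also express, made up 106 to 252 CPM of it, and the endothelial gene Emcn was at 0 in all libraries.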

How the data were processed

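The values are raw counts as the authors deposited them, 1 whole number for each gene and library. The submitters' processing notes list featureCounts 2.0.3, STAR 2.7.10b, Trim Galore 0.6.7, SAMtools 1.9 and FastQC. They also list GRCm39 and mm10 with no role for either, and annotation, strandedness and multimapping are not given in the sources used. Libraries were grouped by their titles. The deposited counts were tested with edgeR 4.0.16 in R 4.3.3 (TMM, default filterByExpr, 1 quasi-likelihood fit of 12 libraries, two-sided). P-values were adjusted by Benjamini-Hochberg over 16166 genes for each of 7 comparisons, and a gene is called at an adjusted p under 0.05. SE is the size of an estimate over the square root of its F statistic. Alternatives used limma-voom (limma 3.58.1) and DESeq2 1.42.0. The default fits of edgeR, DESeq2 and limma-voom were also run on simulated counts, and the other alternatives were not.

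Replicates differed by at least 29.9 in chi-square per degree of freedom, so none was a repeat deposit of the same counts. The members, the 10 further gene lists and the choice of HxD1, KO1 and KO3 as libraries to leave out were made with earlier results of these data known. The text names the members, Tet1, Pou5f1, Dazl, the 3 genes nearest to each member by root mean square difference in log2(CPM + 1), and from each list at most 3 called genes with the smallest adjusted p in each comparison with WT. CPM per kb uses merged GENCODE vM21 exons. Without molecular identifiers, reads are not independent molecules.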

Additional observations from a re-analysis of the deposited data

How the results depend on the processing

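The direction of Stra8, Gm4969 and Meioc against WT was the same under every alternative run, in each mutant and in the mean of the 3 mutants. In KO 3 members were called with all 12 libraries and with each left out, 4 with DESeq2 and with no filter beyond 1 count, and 2 without HxD1, KO1 and KO3. In HxD 0 were called, against 1 with DESeq2, 3 each with limma-voom, no filter beyond 1 count, only the groups compared and the replicate block, and 0 to 2 with 1 library left out. In V 1 (Stra8) was called, against 1 with DESeq2 that was Gm4969 in place of Stra8, 2 each with limma-voom and only the groups compared, 3 each with no filter and the replicate block, 0 with a mean of at least 5 CPM, and 0 to 3 with 1 library left out. In HxD against KO 1 (Stra8) was called with no filter. With no filter the SE of Stra8 in HxD against WT was 0.20, against 0.43 as reported. The added Stra8 calls of that setting therefore rest on a smaller estimated spread. Over all genes, in the order HxD, KO, V and the 3 mutants against WT, then HxD against KO, V against KO and V against HxD, the counts were 5, 197, 25, 198, 0, 0 and 0 as reported. They were 84, 626, 268, 632, 34, 21 and 20 with DESeq2, 7, 185, 32, 208, 1, 0 and 0 with DESeq2 size factors, and 15, 187, 20, 346, 0, 0 and 0 with limma-voom. No filter gave 71, 464, 176, 429, 10, 5 and 1, a mean of at least 5 CPM gave 1, 137, 5, 197, 0, 0 and 0, and fits of only the groups compared gave 20, 189 and 20 against WT and 1, 1 and 0 between mutants. Without HxD1, KO1 and KO3 they were 6, 30, 16, 207, 0, 0 and 0. With 1 library left out they ranged from 1 to 35, 31 to 357, 2 to 110, 29 to 313, 0 to 3, 0 to 3 and 0 to 1. DESeq2 size factors moved the split of higher and lower calls in KO to 90 and 95, against 117 and 80 with TMM, in V to 10 and 22, against 11 and 14, and in the 3 mutants to 81 and 127, against 95 and 103. Whether replicate numbers pair the libraries is not stated. Of 18 same-numbered pairs, 2 had deviations correlated over 0.1, and 6 correlated better than the pairs with other numbers. With groups of 3 this cannot exclude pairing. The replicate block gave 22, 285, 73, 250, 2, 1 and 0 calls. Signs changed for the following estimates, none of which was called. Ythdc2 in HxD was -0.0117 with DESeq2 and with its size factors, -0.00406 with a mean of at least 5 CPM and -0.0552 without HxD1, KO1 and KO3. In V against HxD, Gm4969 was -0.31 without those 3 libraries, and Meioc -0.0857 with limma-voom and -0.00164 with the replicate block. With 1 library left out, Ythdc2 ranged from -0.22 to 0.26 in HxD, -0.37 to 0.11 in KO, -0.34 to 0.14 in V, -0.31 to 0.17 in the 3 mutants, -0.20 to 0.19 in V against KO and -0.36 to 0.0443 in V against HxD. In V against HxD, Stra8 ranged from -0.54 to 0.21, Gm4969 from -0.31 to 0.38, Meioc from -0.44 to 0.47 and Rbm46 from -0.0165 to 0.0668. The cause of these changes was not tested. The lowest values of Zglp1 and Gm4969 rested on 92 and 108 counts, both in KO3.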
